A study of Homo sapiens with 16 samples.

Results

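The immediate early transcription factors described here were 10 genes, selected by symbol from the 63187 gene rows of the deposited table: FOS, FOSB, FOSL1, FOSL2, JUN, JUNB, JUND, EGR1, IER2 and NR4A1. The cells were labelled SK-N-BE(2), an established human neuroblastoma line (column names of the tables read BE2c), and RNA-seq gave 16 libraries, 4 in each of 4 groups. WT is the line labelled wild type, FL was transfected with full-length HIF-2α, the oxygen-sensitive transcription factor encoded by EPAS1, and NCTAD and cIDR were transfected with the forms that the design text marks with a Δ. All groups were grown at 21% O2 in medium with 10% serum, and libraries were made from poly(A) RNA. Whether WT cells were given a vector, how long after transfection RNA was taken, and which residues the 2 shorter forms lack are not stated in the labels, so the act of transfection and the HIF-2α form cannot be told apart in a comparison with WT. Each library carries a batch label from 1 to 4, which equals its replicate number, so that every batch holds 1 library of each group. What a batch was (a culture, a day or a run) is not stated, and neither is whether the 4 libraries of a group came from separate cultures.

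Immediate early genes are transcribed within minutes of a stimulus such as serum, growth factor, calcium entry or stress, from factors already in the cell, and most of their mRNAs are short-lived. Serum response factor with its ternary complex partners acts at CArG boxes, and CREB acts at cyclic AMP response elements. FOS and JUN proteins pair through leucine zippers to form AP-1, while EGR1 and NR4A1 are zinc finger factors, EGR1 downstream of MAP kinases and NR4A1 an orphan nuclear receptor. In neural crest derived cells these genes respond to neurotrophins and depolarisation.

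The promoters of 4 members are shown because these genes moved in opposite directions between batches, EGR1 and IER2 upward and FOS and JUNB downward in batch 2. Each run is the 250 bases before the RefSeq gene start in GRCh38.p14, on the + strand. Capitals mark CArG boxes (found in EGR1 only) and the letters TGACG, the core of the cyclic AMP response element, on either strand, where the other strand reads CGTCA. EGR1 lies at chr5:138465479-138469303, IER2 at chr19:13150411-13154911, FOS at chr14:75278828-75282230 and JUNB at chr19:12791486-12793315.
EGR1 (chr5:138465229-138465478): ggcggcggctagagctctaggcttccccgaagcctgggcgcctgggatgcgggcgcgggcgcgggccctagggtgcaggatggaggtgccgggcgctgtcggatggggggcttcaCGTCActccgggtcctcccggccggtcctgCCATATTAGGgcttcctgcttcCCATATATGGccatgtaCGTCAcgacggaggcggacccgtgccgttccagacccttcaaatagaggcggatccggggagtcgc
IER2 (chr19:13150161-13150410): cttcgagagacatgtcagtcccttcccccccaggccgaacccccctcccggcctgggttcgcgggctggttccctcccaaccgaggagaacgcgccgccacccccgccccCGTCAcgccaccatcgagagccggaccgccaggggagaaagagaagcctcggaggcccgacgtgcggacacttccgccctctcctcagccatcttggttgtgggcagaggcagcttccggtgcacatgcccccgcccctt
FOS (chr14:75278578-75278827): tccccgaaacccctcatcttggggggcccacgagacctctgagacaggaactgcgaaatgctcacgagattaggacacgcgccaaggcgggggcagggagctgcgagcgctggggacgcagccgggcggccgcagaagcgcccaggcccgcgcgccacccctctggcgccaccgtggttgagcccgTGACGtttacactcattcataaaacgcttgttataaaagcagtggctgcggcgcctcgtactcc
JUNB (chr19:12791236-12791485): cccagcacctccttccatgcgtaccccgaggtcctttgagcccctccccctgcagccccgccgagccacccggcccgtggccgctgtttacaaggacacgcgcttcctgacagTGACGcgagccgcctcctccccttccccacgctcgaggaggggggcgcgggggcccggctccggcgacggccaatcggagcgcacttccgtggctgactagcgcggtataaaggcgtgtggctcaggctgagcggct
With -1 as the last base before the start, the CArG boxes of EGR1 begin at -105 and -83, and a CArG box stood in 1.16% of 35116 promoter windows of this length. The core TGACG was found in 8 of the 9 members with a promoter entry, 12 times in all, and in 21.2% of all windows; NR4A1 is the member without it, and FOSL1 has no entry. In the runs above it begins at -135 and -66 in EGR1, at -140 in IER2, at -64 in FOS and at -137 in JUNB. The part of TGACG in the differences between batches was not tested. The full element TGACGTCA, which contains TGACG, was in 1.65% of windows and, among members, in JUND alone, at -200. The pattern TGANTCA, which takes any middle base where the AP-1 site has C or G, stood in 6.57% of windows. It was in none of the members' windows. The EGR site GCGNGGGCG was in 8.41% of windows and in EGR1 itself at -198. The letters ACGTG, a form of the core of the hypoxia response element, can overlap TGACG. They were in 18.5% of windows and in EGR1, FOSL2 and IER2. The other form of that core, GCGTG, was not searched for, so members without ACGTG may still hold a core. These are letter matches within 250 bases and not measured binding, and a missing match says only that the letters are not in that window.

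EPAS1 followed the labels, at 13.0 to 28.1 counts per 1 M counts (CPM) in the WT libraries and 1320 to 5852 CPM in the others. Totals per library were 38.6 to 56.1 M estimated counts. The libraries of batch 2 stood apart from the other 12 across the transcriptome, and 53.9% of the 19530 genes tested differed between them (edgeR quasi-likelihood test, adjusted p under 0.05). Sympathetic neuroblastoma markers were present in every library, the summed level of 9 of them being 5013 to 5434 CPM in batch 2 and 4433 to 5766 CPM elsewhere. Of 6 leukocyte and endothelial genes, PTPRC, CD3E and PECAM1 never exceeded 3 counts in a library, while CD68, CDH5 and VWF reached 34, 49 and 77 counts.

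Members differed widely in level. In transcripts per 1 M (TPM), which divide by transcript length and so allow genes to be compared, JUND was highest at 133 ± 16.3 (SD over the 16 libraries, groups and batches together). JUNB followed at 90.1 ± 8.30 TPM and IER2 at 86.1 ± 14.96 TPM, and the libraries' ranges of this pair overlapped, 74.7 to 103 and 68.6 to 117. NR4A1 stood at 45.4 ± 8.70 TPM and EGR1 at 41.95 ± 20.2 TPM, which also overlapped, and JUN at 29.4 ± 4.9 TPM reached into the range of both. The order of EGR1 depended on the batch: its mean was 74.0 TPM in batch 2, above NR4A1 at 58.7 TPM, and 31.3 TPM in the other batches, below NR4A1 at 40.9 TPM and close to JUN at 31.7 TPM. The lowest JUN library, 20.2 TPM, was above every library of FOSL2 (7.59 ± 2.37 TPM) and FOS (6.49 ± 2.57 TPM), 2 genes whose ranges overlapped. FOSB was at 0.514 ± 0.165 TPM. FOSL1, the FOS relative also called FRA-1, was all but absent: it had 0 to 9 estimated counts in a library, was listed at 0 in WT replicates 1 and 4, and did not pass the filter on low counts. The AP-1 family message in these cells was thus mainly JUND and JUNB on the scale of TPM, with FOS family message lower in every library.

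**Figure D1:**
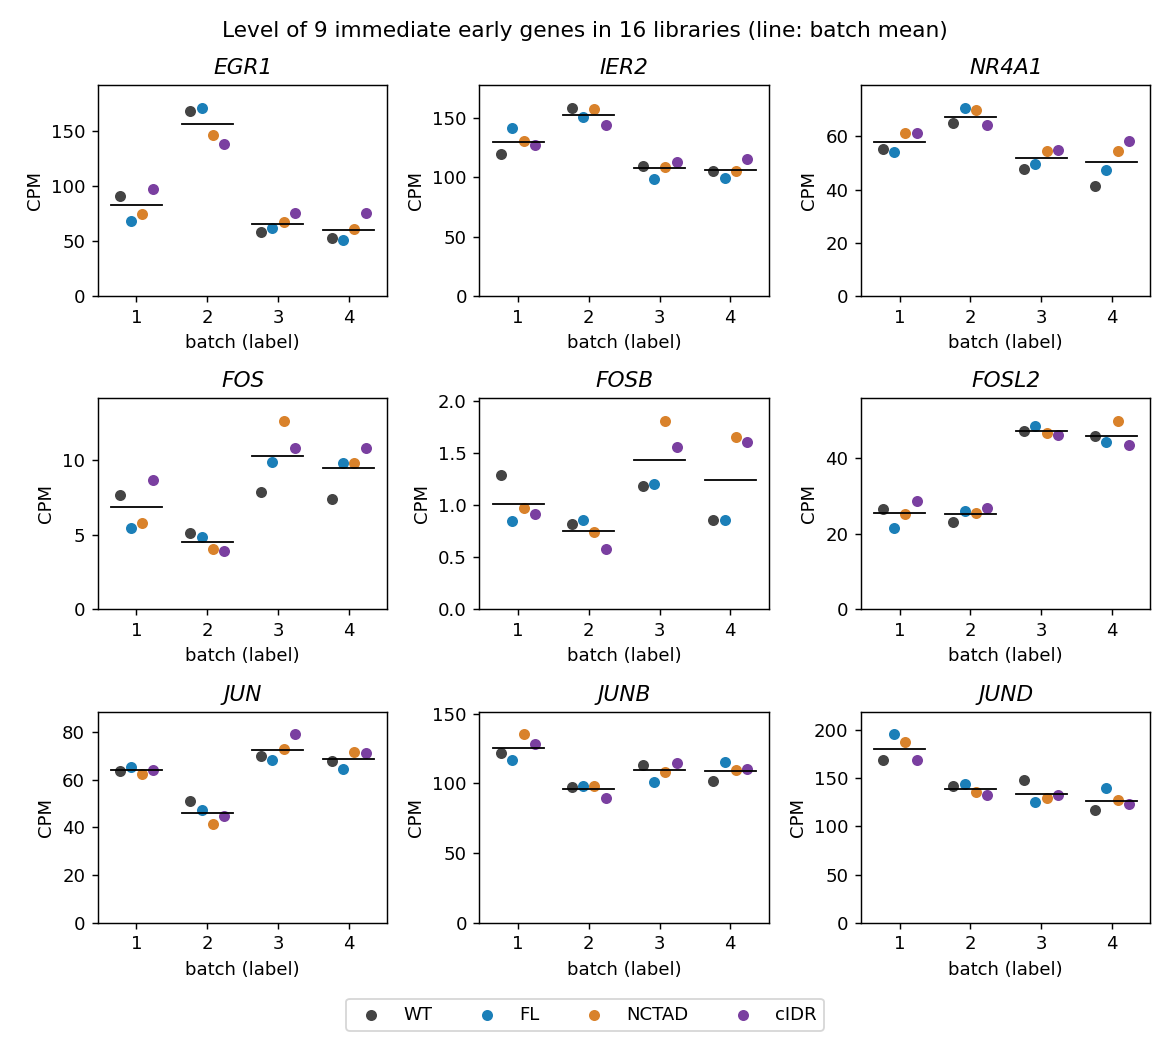
Level of the 9 tested members in CPM (y axis, from 0) by batch label (x axis); each point is 1 library, coloured by group, and each line is the mean of the 4 libraries of a batch. EGR1, IER2 and NR4A1 are highest in batch 2, FOS, JUN and JUNB are lowest there, FOSL2 is low in batches 1 and 2, and JUND is high in batch 1.

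Batch 2 divided the members. With the group in the model, 8 of the 9 tested members differed between batch 2 and the other batches, 3 higher and 5 lower (edgeR adjusted p under 0.05). Of all tested genes 53.9% were called, 27.7% higher and 26.1% lower, so a call by itself does not set the members apart. The members' median log2 difference was -0.25, against 0.035 over all tested genes. The 4 libraries of batch 2 lay wholly outside the range of the other 12 in 6 of the 9 members, 3 above and 3 below, while 29% of all tested genes did so, 14.4% above and 14.6% below. Libraries of a batch share that batch, so these p-values measure the spread between libraries and not between batches, and batch 2 was singled out with earlier results of these data known.

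EGR1, which encodes a zinc finger activator and is a standard marker of MAP kinase and SRF activity, showed the widest difference. In batch 2 it reached 168 CPM in WT, 171 CPM in FL, 146 CPM in NCTAD and 138 CPM in cIDR. In batch 1 the same groups, in that order, had 90.3, 68.0, 74.5 and 96.95 CPM. In batches 3 and 4 EGR1 ran from 51.0 CPM in FL to 75.2 CPM in cIDR. All batch 2 libraries were thus above all others, with 138 as the lowest there and 96.95 as the highest elsewhere. The log2 difference was 1.20 ± 0.09 (SE, 95% interval 1.00 to 1.39), a 2.29-fold rise (edgeR adjusted p = 5.77e-08). EGR1 ranked high but not at the extreme: 5.55% of tested genes had a larger log2 difference, and 7.36% were called and at least 2-fold higher.

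IER2, a small nuclear protein encoded by a gene with 1 exon, and NR4A1 (chr12:52022832-52059503) rose with EGR1 and by less. IER2 had 159, 151, 158 and 145 CPM in batch 2 (WT, FL, NCTAD and cIDR) and 98.6 to 141 CPM in the other 12 libraries. Its highest library outside batch 2 was FL in batch 1, at 141 CPM, close below the lowest of batch 2. The rise was 1.34-fold (log2 0.42 ± 0.05, edgeR adjusted p = 6.92e-06). NR4A1 had 64.9, 70.8, 69.96 and 64.1 CPM in batch 2 against 41.2 to 61.3 CPM elsewhere. Its rise was 1.27-fold (log2 0.35 ± 0.05, edgeR adjusted p = 8.52e-05). For both genes batch 1 was intermediate, with means of 129.8 and 57.9 CPM, above the means of batches 3 and 4.

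The FOS genes went the other way. FOS, the partner of JUN in classical AP-1, had 5.12, 4.82, 4.04 and 3.93 CPM in batch 2 (WT, FL, NCTAD and cIDR). In batch 1 it had 7.66, 5.44, 5.76 and 8.63 CPM, and in batches 3 and 4 it ran from 7.40 CPM in WT to 12.6 CPM in NCTAD. No library of batch 2 reached the level of any other library in CPM, although in TPM the highest of batch 2, 4.82 TPM, was above the lowest elsewhere, 3.62 TPM. FOS fell by 0.95 ± 0.15 on the log2 scale, 1.94-fold lower (edgeR adjusted p = 7.4e-05), and 1.78% of tested genes had a lower log2 difference. FOSB, whose gene also yields the stable ΔFosB protein in neurons, was near 1 CPM throughout, at 0.581 to 0.862 CPM in batch 2 and 0.849 to 1.81 CPM elsewhere. The libraries of batch 2 overlapped the others, and its difference of -0.67 ± 0.21 (edgeR adjusted p = 0.0156) was the least certain of the calls. It missed the threshold without the batch 2 library of NCTAD (-0.58, edgeR adjusted p = 0.0735) or of cIDR (-0.52, edgeR adjusted p = 0.089).

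FOSL2, the FOS relative known as FRA-2, is the member for which batch 2 was not alone. Its batch means were 25.5, 25.3, 47.1 and 45.8 CPM for batches 1 to 4. The libraries of batches 1 and 2 spanned 21.6 to 28.7 CPM and those of batches 3 and 4 spanned 43.4 to 49.8 CPM, with no overlap between the 2 pairs of batches. The called fall of 0.59 ± 0.06 on the log2 scale in batch 2 against the other 3 batches (edgeR adjusted p = 2.1e-06) is therefore a contrast with batches 3 and 4, not with batch 1.

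Among the JUN genes, JUN fell most, JUNB less, and JUND was not called. JUN (chr1:58780791-58784047, - strand), the main activating partner of FOS, had 50.9, 47.1, 41.2 and 44.8 CPM in batch 2 and 62.4 to 79.1 CPM in the other libraries, without overlap. That is a fall of 0.57 ± 0.05 on the log2 scale, 1.49-fold lower (edgeR adjusted p = 6.7e-07). JUNB, often a weaker activator that competes with JUN, had 89.7 to 98.4 CPM in batch 2 against 101 to 135 CPM. It fell by 0.25 ± 0.05 in log2 (edgeR adjusted p = 0.000583), a narrow separation, since FL in batch 3 and WT in batch 4 stood at 101 and 102 CPM. JUND, the broadly expressed JUN gene that depends least on stimulation, had 133 to 144 CPM in batch 2, inside the range of 117 to 196 CPM elsewhere. Its difference was -0.07 ± 0.05 (95% interval -0.18 to 0.05, edgeR adjusted p = 0.322). What set JUND apart was batch 1, with a mean of 181 CPM against 139, 134 and 127 CPM in batches 2, 3 and 4. Without batch 1 its difference was 0.095, and without batch 3 or batch 4 it passed as lower, at -0.13 (edgeR adjusted p = 0.0398) and -0.16 (edgeR adjusted p = 0.0232).

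**Figure D2:**
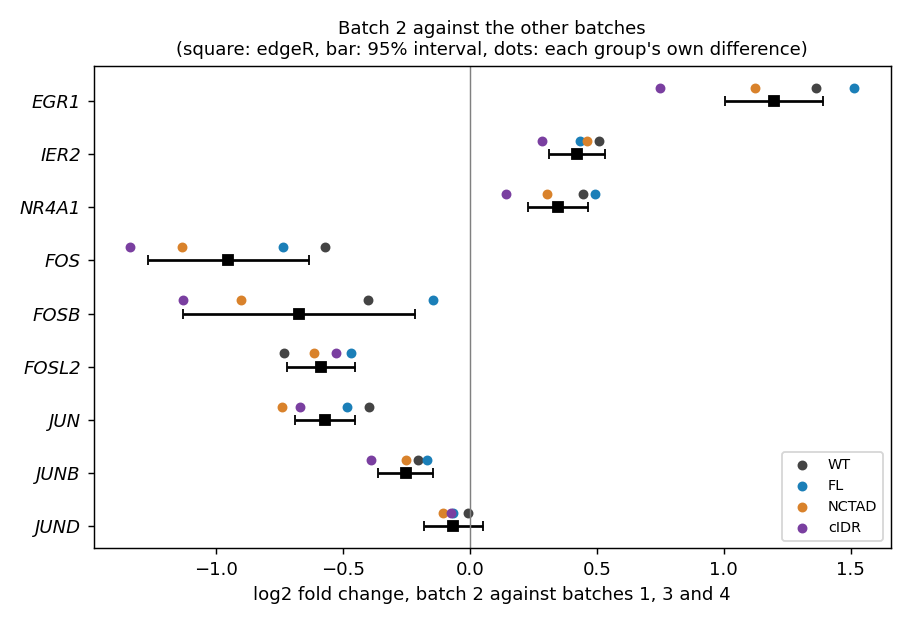
Log2 fold change of each member in batch 2 against batches 1, 3 and 4 (x axis, 0 means equal): squares are edgeR estimates with bars for 95% intervals, and dots are each group's own difference in log2 CPM. The dots of EGR1, IER2 and NR4A1 all lie above 0 and those of the other 6 genes all lie below 0, and the interval of JUND spans 0.

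JUNB and IER2 lie on the same chromosome, 357 kb apart, and were at similar levels, yet were called in opposite directions. A test of any difference among the 4 batches called 9 of the 9 tested members, against 53.1% of all genes (edgeR adjusted p from 8.84e-08 for FOSL2 to 0.035 for FOSB). By limma on log2(TPM + 1) 7 of 9 were called, with 6931 of 17071 genes called in all. Batch accounted for 54.8% of the sum of squares of log2 CPM in FOSB and for 67.1% to 95.6% in the other 8. The group accounted for 0.69% in FOSL2 up to 19.0% in NR4A1. Over all tested genes the medians were 53.9% for batch and 7.85% for group. NR4A1 was the only member whose group share exceeded 10%.

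The study's own comparison, between the HIF-2α forms, gave no called difference among the members. In the model with group alone, none of the 9 tested members passed in any of the 6 pairwise comparisons or in the test over 4 groups (edgeR adjusted p of 1 for each, and 0 of 9 at an unadjusted p under 0.05). Of all tested genes, 0.0102% were called in FL against WT, 0.0256% in NCTAD against WT, 0.0102% in cIDR against WT and 0.0102% over the 4 groups, and 0% in the 3 comparisons between constructs. DESeq2 and limma also called 0 of 9 in each. With the batch as a replicate block, which pairs libraries of the same batch, 0 of 9 members were again called in each comparison. That fit called 0.102%, 0.456% and 0.486% of all genes for FL, NCTAD and cIDR against WT, 0.425% over the 4 groups, and 0%, 0.0307% and 0.00512% for NCTAD against FL, cIDR against FL and cIDR against NCTAD. The members' median log2 difference with the block was -0.02 for FL, 0.04 for NCTAD and 0.05 for cIDR against WT, where the median of all genes was 0.011, 0.016 and 0.0079. These 3 comparisons share the WT libraries.

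How large a difference could have been missed varied by gene. With the block, the 95% interval for NCTAD against WT was -0.18 to 0.09 for JUN, -0.08 to 0.18 for JUNB, -0.14 to 0.14 for JUND, -0.12 to 0.16 for IER2 and -0.12 to 0.20 for FOSL2. For these 5 genes differences above 0.21 on the log2 scale lie outside the interval in that comparison. EGR1 was less tightly bounded, at -0.28 to 0.23, and FOS at -0.27 to 0.46. In cIDR EGR1 reached 0.18 against WT (-0.08 to 0.43) and 0.26 ± 0.12 against FL (0.0099 to 0.51, unadjusted p = 0.0426, edgeR adjusted p = 1), where 3.68% of all genes had an unadjusted p under 0.05. FOSB, near 1 CPM, had the widest of these intervals, -0.29 to 0.79.

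NR4A1 came closest to a difference between groups. Its log2 difference with the block was 0.21 ± 0.07 in NCTAD against WT (95% interval 0.07 to 0.36, unadjusted p = 0.00766, edgeR adjusted p = 0.487). For cIDR against WT it was 0.21 ± 0.07 (0.06 to 0.36, unadjusted p = 0.00862, edgeR adjusted p = 0.513). FL against WT gave 0.09 ± 0.07, and NCTAD against FL 0.12 ± 0.07 (edgeR adjusted p = 0.996). Within batches 1 to 4 NCTAD was above WT by 0.15, 0.11, 0.20 and 0.40 in log2 CPM, which made it the only 1 of 27 pairings of member and construct with the same sign in all 4 batches. Of all tested genes 8.86% had NCTAD above WT in 4 of 4 batches and 6.48% had it below; the shares were 5.35% and 3.95% for FL and 10.6% and 7.15% for cIDR. cIDR was above WT by 0.15, 0.21 and 0.50 in batches 1, 3 and 4 and not in batch 2, at -0.02. By adjusted p NR4A1 did not pass, and an unadjusted p under 0.05 was given by 5.96% of all genes in NCTAD and 5.45% in cIDR against WT.

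FOS, FOSB and EGR1 differed from WT in one direction in some batches and in the other direction in others. FOS in NCTAD stood at -0.41 and -0.34 relative to WT in batches 1 and 2, and at 0.69 and 0.40 in batches 3 and 4. In cIDR it stood at 0.17, -0.38, 0.46 and 0.54 in batches 1 to 4. FOSB in cIDR ran -0.47, -0.47, 0.38 and 0.87 over the same batches. EGR1 in cIDR ran 0.10, -0.29, 0.36 and 0.52. In batch 2, where EGR1 was high in every group, the cIDR library was the lowest of the 4, and in batches 1, 3 and 4 it was the highest. EPAS1 also differed between batches: over batches 1 to 4 cIDR libraries had 4078, 2189, 5852 and 5816 CPM, NCTAD libraries 2203, 1320, 4228 and 3655 CPM, FL libraries 1691, 2001, 3580 and 3164 CPM and WT libraries 13.0, 28.1, 17.3 and 14.3 CPM. It was lowest in batch 2 in cIDR and NCTAD, but not in FL, and highest there in WT. The part of EPAS1 level in these differences was not tested. A test of whether the batch 2 difference varied between groups called 0 of 9 members, against 0.0358% of all genes (edgeR interaction, adjusted p of 1 for each; DESeq2 and limma also called 0 of 9). Among members only EGR1 had an unadjusted p under 0.05 there, at 0.0117, as did 1.24% of all genes.

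**Figure D3:**
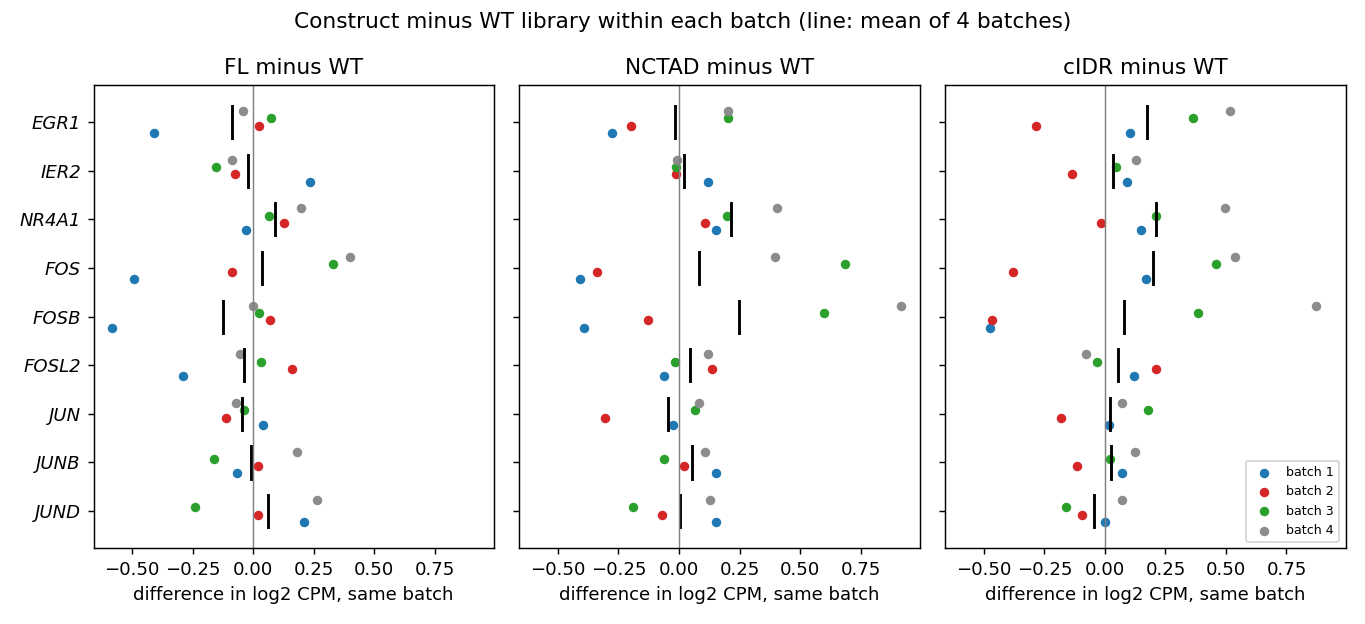
Difference in log2 CPM between each construct library and the WT library of the same batch (x axis), for 9 members (rows) in 3 panels by construct; points are batches, coloured by batch label, and bars are the mean of 4 batches. NR4A1 in NCTAD is the only row with all 4 points on one side of 0, and the points of FOS and FOSB in NCTAD and cIDR lie on both sides of 0.

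Pairs of members behaved differently between and within batches. Over the 16 libraries the Pearson correlation of log2 CPM was -0.72 between FOS and EGR1, and after each batch's mean was taken off it was 0.80. FOSB and EGR1 went from -0.49 to 0.73 in the same way, and JUN and EGR1 from -0.84 to 0.56. EGR1 and NR4A1 were positively related both ways, at 0.89 and 0.67, as were FOS and FOSB, at 0.84 and 0.62. Libraries of a batch thus tended to be high or low in FOS, FOSB, EGR1 and NR4A1 at once, while between batches FOS and EGR1 were opposed. These are descriptions over 16 libraries that share 4 batches and 4 groups, with no test.

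Genes that followed the members' mean were sought among 12921 other genes with a mean log2 CPM of at least 1, by correlation with the mean z-score of the 8 members at that level (all but FOSB and FOSL1). Since members were opposed between batches, batch differences partly cancel in this mean, and a gene that follows it need not resemble any 1 member. BTG3, an antiproliferative gene, followed the mean most closely over the 16 libraries (r = 0.91), followed by SYN1, which encodes synapsin I (r = 0.84), HCCS (r = 0.79), NAB2, a corepressor that binds EGR1 (r = 0.78), and FAM222B (r = 0.77). With batch means taken off, BTG3 was again the closest (r = 0.89), and genes with a lower correlation included ZYX (r = 0.84), SPATA6 (r = 0.81) and SYN1 (r = 0.79). The top of 12921 correlations over 16 libraries is a ranking and not a test.

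Other immediate early transcription factors were called in both directions in batch 2, as were genes at large (27.7% of all tested genes higher, 26.1% lower). Of 17 on the list, 15 were tested, and 4 rose, 7 fell and 4 were not called, with a median log2 difference of -0.08. IER3 rose most clearly, from 1.78 to 3.03 CPM in the other batches to 8.87 to 12.9 CPM in batch 2 (log2 2.35 ± 0.09, edgeR adjusted p = 5.61e-11). ATF3, a stress-induced bZIP factor, had 27.8 to 33.04 CPM in batch 2 and 12.6 to 16.4 CPM elsewhere (log2 1.10 ± 0.06, edgeR adjusted p = 2.17e-09). NPAS4, the neuronal factor induced by calcium entry, fell by 2.86 ± 0.25 on the log2 scale, to 0.335 to 0.627 CPM from 2.14 to 5.38 CPM (edgeR adjusted p = 2.61e-07).

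Immediate early effectors and feedback inhibitors went both ways. The list holds phosphatases and Sprouty proteins, which help to end the response, and also effectors with other roles, such as SGK1. Of 24 tested out of 26, 7 rose, 7 fell and 10 were not called, beside 27.7% higher and 26.1% lower over all tested genes. PHLDA1 rose by 0.98 ± 0.04 (edgeR adjusted p = 3.99e-11) and DUSP6, the phosphatase of ERK, by 1.32 ± 0.06 in log2 (edgeR adjusted p = 1.67e-10). DUSP6 was at 18.6 to 20.01 CPM in batch 2 and 6.71 to 9.74 CPM elsewhere. SGK1, a serum and glucocorticoid regulated kinase, fell by 1.39 ± 0.06 in log2 (edgeR adjusted p = 1.19e-10), to 42.9 to 52.6 CPM from 111 to 139 CPM. Other MAP kinase phosphatases did not follow DUSP6, and were looked at after their values were seen: DUSP1, DUSP2 and DUSP4 fell by 0.24, 0.78 and 0.24 in log2 (edgeR adjusted p = 0.00366, 0.000992 and 0.00192), and DUSP5 was not called.

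Upstream, differences were small. Of 25 tested MAP kinase, SRF and CREB pathway genes out of 26, 6 rose, 10 fell and 9 were not called, with a median of -0.07, beside 53.9% called and a median of 0.035 over all tested genes. MEF2D, a calcium-responsive MADS box factor, rose by 0.33 ± 0.04, and the SRF coactivator MRTFA fell by 0.32 ± 0.04 in log2 (edgeR adjusted p = 4.51e-06 and 6.74e-06). Among other bZIP partners of AP-1, 18 of 20 were tested, 8 rose, 2 fell and 8 were not called, with a median of 0.18, where 27.7% of all tested genes were higher and 26.1% lower. ATF5 rose from 23.3 to 32.4 CPM elsewhere to 102 to 150 CPM in batch 2 (log2 2.06 ± 0.06, edgeR adjusted p = 6.11e-12). JDP2, a JUN-dimerising repressor, rose by 1.56 ± 0.09, and ATF4, the translationally controlled stress factor, by 0.68 ± 0.04 in log2 (edgeR adjusted p = 3.75e-09 and 1.45e-08). Of 16 genes associated with late AP-1 activity 9 were tested, and 4 rose, 4 fell and 1 was not called, against the same shares over all genes. Cyclin D1 (CCND1) fell by 0.54 ± 0.05 on the log2 scale, to 759 to 839 CPM from 1079 to 1273 CPM (edgeR adjusted p = 2.78e-07). The matrix protease MMP9 rose by 3.17 ± 0.30 from a level near 0.13 CPM (edgeR adjusted p = 5.58e-07), and its inhibitor TIMP1 fell by 0.62 ± 0.07 in log2 (edgeR adjusted p = 2.64e-06).

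**Figure D4:**
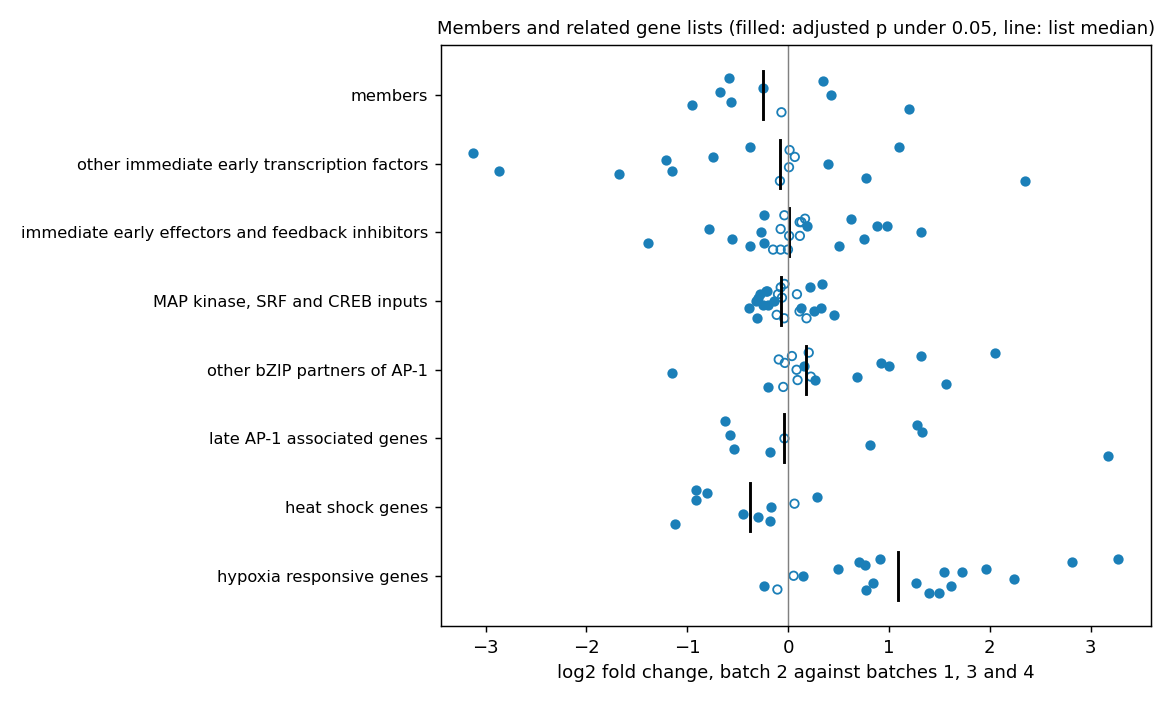
Log2 fold change in batch 2 against batches 1, 3 and 4 (x axis) for each tested gene of 8 lists (rows); filled points had an edgeR adjusted p under 0.05, open points did not, and bars are list medians. Members and other immediate early factors spread to both sides of 0, heat shock genes lie mostly below it and hypoxia responsive genes mostly above it, with medians of -0.38 and 1.09.

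Hypoxia, heat shock and proliferation genes were also compared between batch 2 and the others, where 27.7% of all tested genes were called higher and 26.1% lower. Hypoxia responsive genes were higher in 17 of 20, with 1 lower, and their summed level was 2222 to 3182 CPM in batch 2 against 1189 to 1587 CPM, in cultures that all carry the same 21% O2 label. PFKFB4 (log2 2.24 ± 0.05), P4HA2 (1.55 ± 0.05) and PDK1 (2.81 ± 0.08) were the clearest (edgeR adjusted p = 2.39e-13, 4.59e-12 and 4.65e-12). Heat shock genes were lower in 8 of 10 and higher in 1, at 4288 to 4531 against 5848 to 6701 summed CPM, with HSPA1A falling by 1.121 ± 0.05, HSPA8 by 0.80 ± 0.05 and HSPH1 by 0.91 ± 0.05 in log2 (edgeR adjusted p = 2.89e-10, 3.96e-09 and 4.46e-09). Proliferation genes were lower in 6 of 10 and higher in 1, at 1979 to 2028 against 2185 to 2429 summed CPM, with RRM2 falling by 0.65 ± 0.05, PCNA by 0.42 ± 0.05 and CCNB1 by 0.31 ± 0.04 in log2 (edgeR adjusted p = 3.94e-08, 3.82e-06 and 9.91e-06). The part of hypoxia, heat shock or proliferation in the members' differences was not tested. In bulk RNA, fewer cells of a kind and less RNA per cell cannot be told apart.

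The lists of cell type markers are read against the 27.7% of all tested genes called higher and 26.1% lower. Of the sympathetic list, 4 of 9 rose and 3 fell in batch 2. The noradrenaline synthesis genes TH and DBH rose by 2.15 and 0.69 in log2, and the lineage factor GATA3 fell by 0.80 in log2 (edgeR adjusted p = 3.11e-09, 5.51e-08 and 6.63e-09). Fibroblast-associated genes were higher in 4 of 5 tested, with a summed level of 192 to 204 CPM against 92.3 to 136 CPM, carried by PDGFRB (127 against 78.0 CPM), LUM (47.0 against 17.3 CPM) and DCN (17.7 against 9.70 CPM). The 2 chains of type I collagen differed: COL1A2 was at or near 0 in all libraries, with at most 4 counts, while COL1A1 had 4.93 to 6.44 CPM in batch 2 and 1.69 to 2.90 CPM elsewhere (log2 1.31, edgeR adjusted p = 1.58e-07). Epithelial genes summed to 9.48 to 10.53 CPM in batch 2 and 7.22 to 11.3 CPM elsewhere, with 2 of 4 tested higher (KRT8 and KRT18), and CDH1 never above 6 counts. Leukocyte and endothelial genes summed to 1.34 to 2.62 CPM against 0.188 to 1.47 CPM, with 2 of 3 tested higher (VWF and CDH5). The part of these genes in the members' differences was not tested.

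Between groups, none of the 111 tested genes in the lists of other immediate early factors, effectors, inputs, bZIP partners, late AP-1 genes, heat shock and proliferation genes was called in a pairwise comparison by edgeR, with or without the block. At an unadjusted p under 0.05 there were 0, 1 and 1 of them for FL, NCTAD and cIDR against WT without the block and 8, 12 and 11 with it, and 0 without and 4 to 5 with it between constructs. Over all tested genes the shares against WT without the block were 1.14%, 1.42% and 1.37%, and with the block they were 5.11%, 5.96% and 5.45% against WT and 3.69%, 3.68% and 2.15% for NCTAD against FL, cIDR against FL and cIDR against NCTAD. DESeq2 called 0 in each without the batch, and with it 1 in cIDR against WT. How many of all genes DESeq2 called against WT, without and with the batch, is given below with the other alternatives. Beside these stood the hypoxia list, the known HIF targets, where the block called 1 of 20 genes in FL, 7 in NCTAD and 9 in cIDR against WT. Over all tested genes the block called 0.102%, 0.456% and 0.486% in the same comparisons. Without the block edgeR called 0 of 20 in each, with 3, 3 and 5 at an unadjusted p under 0.05 (1.14%, 1.42% and 1.37% of all tested genes), and DESeq2 called 0, 1 and 2. BHLHE40, a HIF-induced repressor, rose against WT with the block in all 3 constructs, by 0.78 ± 0.08 for FL, 0.93 ± 0.08 for NCTAD and 1.11 ± 0.08 for cIDR (edgeR adjusted p = 0.000308, 5.92e-05 and 5.79e-06). VEGFA rose by 1.05 ± 0.11 in NCTAD and 0.89 ± 0.11 in cIDR (edgeR adjusted p = 0.00035 and 0.00106). PFKFB4 rose by 0.67 ± 0.07 in cIDR and 0.36 ± 0.07 in NCTAD against WT (edgeR adjusted p = 0.000314 and 0.0325). The demethylase KDM3A rose by 0.43 ± 0.05 in cIDR against WT and by 0.39 ± 0.05 against FL (edgeR adjusted p = 0.00106 and 0.0281). TH and DBH, also with the block, rose by 1.28 ± 0.17 and 0.61 ± 0.07 in NCTAD against WT (edgeR adjusted p = 0.0022 and 0.00035) and by 1.06 ± 0.17 and 0.51 ± 0.07 in cIDR against WT (edgeR adjusted p = 0.00953 and 0.00131). VWF, an endothelial gene at a mean of 1.15 CPM in batch 2 and 0.305 CPM elsewhere, rose by 1.65 ± 0.34 in cIDR against WT with the block (edgeR adjusted p = 0.0439). Without the block none of these calls for TH, DBH and VWF held (edgeR adjusted p of 1 for each). The log2 differences from WT were then 1.09 for TH and 0.61 for DBH in NCTAD. In cIDR they were 0.97 for TH, 0.51 for DBH and 1.33 for VWF.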

How the data were processed

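RNA-seq was deposited for 16 libraries as estimated counts per gene and as TPM. Per the submitters' processing notes, fastp, STAR, Salmon and featureCounts were used with GRCh38; versions and settings are not given in the sources used here. The deposited estimated counts, 15.5% of them not whole, were rounded. The deposited TPM values, scaled by length and depth by the authors, were used for levels and as an alternative. Column names of the tables call the line BE2c, FL wild type and WT control; groups follow the genotype labels.

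Genes were filtered with filterByExpr by group (19530 of 63187 kept) and tested with edgeR 4.0.16 (R 4.3.3; TMM, quasi-likelihood F test, Benjamini-Hochberg over all tested genes, called under 0.05). Groups were compared with group alone as the main fit and with the batch as a replicate block; batch 2 was compared with the other batches with group and batch in the model. The labels name the batch. Deviations of libraries from their group mean had a mean correlation of 0.308 (0.0674 to 0.712, 24 pairs) within a batch and -0.0945 (72 pairs) between batches. CPM use TMM library sizes; log2 CPM has a prior of 2 counts. The lowest chi-square per degree of freedom between replicates was 6.96, so no 2 replicates of a group agreed within sampling noise. Precision is limited by 4 libraries a group; p-values measure the spread between libraries. The code was tested on simulated data.

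Members, lists and the batch 2 contrast were chosen with earlier results of these data known. Besides all members and EPAS1, genes named were, per list, up to 4 called between groups and the 3 with the smallest adjusted p in batch 2, and the 5 most similar patterns; defining markers at or near 0 are named besides. Of the genes this rule selects, 2 are not reported here. Alternatives were limma 3.58.1 on log2(TPM + 1) and log2(TPM + 0.1), DESeq2 1.42.0, median-of-ratios size factors, other count filters, and leaving out libraries or batches. Promoters and positions are from RefSeq, GRCh38.p14 (9 of 10 members had a promoter entry); exon counts are from GENCODE 29.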

Additional observations from a re-analysis of the deposited data

Results flagged for a closer look

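In 6 of the 36 sets formed by 1 member in 1 group of 4 libraries, a single library lay far from the other 3 relative to the range of the set (Dixon's ratio above its 95% critical value, which chance exceeds in about 1 of 20 sets), and 4 of the 6 were libraries of batch 2. EGR1 was set apart in batch 2 in FL, at 171 CPM, and in NCTAD, at 146 CPM. FOS was low in WT in batch 2, at 5.12 CPM. JUN was low in FL in batch 2, at 47.1 CPM. JUND was high in NCTAD in batch 1, at 188 CPM. FOSB was high in FL in batch 3, at 1.20 CPM.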

How the results depend on the processing

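Between batch 2 and the others, EGR1, IER2, NR4A1, FOS, FOSL2, JUN and JUNB kept direction and call in all 26 alternatives. FOSB missed the threshold in 5: limma on log2(TPM + 1) (-0.19, adjusted p 0.14) or log2(TPM + 0.1) (-0.48, 0.141), without batch 3 (-0.57, edgeR adjusted p 0.0848), and without the batch 2 library of NCTAD or cIDR. JUND changed sign in limma on log2(TPM + 1) and log2(TPM + 0.1) (0.035 in each, adjusted p 0.596 and 0.597) and without batch 1 (0.095, edgeR adjusted p 0.106); the cause was not tested. Members called in batch 2 ranged from 7 to 8 with 1 library left out, and over the 4 batches from 8 to 9; limma on TPM called 7 over the 4 batches with either pseudocount. Group comparisons and the interaction called 0 members under every alternative run, including without batch 2, with or without the block.

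The count of pairings with the same sign in every batch, 1 of 27, was 2 in log2(TPM + 1) and 2 to 7 when a replicate number was left out, which asks for agreement of 3 batches only. The replicate block pairs libraries of a batch; it changed no member's call, and moved the calls over all genes from 2 to 20, 5 to 89 and 2 to 95 for FL, NCTAD and cIDR against WT, from 0 to 6 and 0 to 1 for cIDR against FL and against NCTAD, and from 2 to 83 over the 4 groups. DESeq2 called 11, 17 and 8 against WT, 2, 0 and 3 between constructs and 22 over the groups. With the batch in its model, an alternative chosen after seeing the data, it called 58, 168 and 156 against WT. The interaction could not be fitted without WT replicate 2. Depth limits FOSB, near 1 CPM, and FOSL1, with at most 9 counts.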

Other observations

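Close relatives of 2 members did not move with them in batch 2; these genes were singled out after their values were seen. NR4A2 and NR4A3, the other nuclear receptors of the NR4A family, fell by 0.75 ± 0.18 and 1.15 ± 0.17 in log2 (edgeR adjusted p = 0.00289 and 3.94e-05), while NR4A1 rose by 0.35 ± 0.05. NR4A3 had 0.951 to 1.47 CPM in batch 2 and 1.26 to 3.51 CPM elsewhere, and NR4A2 had 0.586 to 0.931 and 0.728 to 1.83 CPM, so both overlapped and both were far less abundant than NR4A1. EGR3 was at 0.563 to 0.783 CPM in batch 2 and 0.267 to 1.20 CPM elsewhere, with a difference of -0.08 ± 0.26 (edgeR adjusted p = 0.812). EGR2 and EGR4 did not pass the filter on low counts, with at most 14 and 7 counts in a library. SRF, whose product drives many of these genes, fell by 0.38 ± 0.05 in log2 (edgeR adjusted p = 9.81e-06), from 56.5 to 69.9 CPM elsewhere to 45.5 to 48.3 CPM in batch 2.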
